A study of Homo sapiens with 6 samples.

Results

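The genes described here are 48 DNA damage repair genes, taken by symbol from the table of 20289 genes measured in Huh7 cells. Huh7 is a human hepatocellular carcinoma line. All 48 symbols were found once each, and all 48 passed the filter on low counts, with at least 144 estimated reads in every library. The study asked which genes act downstream of UBE2S, a ubiquitin-conjugating enzyme that extends ubiquitin chains with the anaphase-promoting complex. It compared 3 libraries of UBE2S knockout Huh7 cells (KO) with 3 libraries of wild-type Huh7 cells (WT), all poly(A) RNA. The labels give no further treatment or time point, and they do not say how the knockout was made, whether it is a clone or a pool, or whether replicates came from separate cultures. The p-values therefore measure the spread between these libraries, which may be technical.

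Cells mend DNA by several routes that share parts. Homologous recombination copies an intact sister strand to close a double-strand break, and non-homologous end joining ligates the broken ends directly. The Fanconi anaemia proteins undo crosslinks between strands, mismatch repair corrects replication errors, and base and nucleotide excision repair remove small and bulky lesions from a single strand. The kinases ATM and ATR signal damage to the cell cycle through CHEK2 and CHEK1. Many repair genes are transcribed mainly in proliferating cells, and liver carcinoma lines such as Huh7 divide continuously.

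UBE2S itself had 47.6, 45.4 and 44.2 CPM in KO libraries, against 234, 220 and 216 CPM in WT libraries (CPM, counts scaled to library size by the TMM method). The transcript fell (log2 fold change -2.29, SE 0.04, edgeR adjusted p = 1.59e-12). Library totals were 21840499 to 25840104 estimated counts in KO and 23300336 to 27910396 in WT. WT replicate 1 stood apart from the other WT libraries: the chi-square per degree of freedom was 8.41 and 10.9 against them, and 1.80 between those. All 8 hepatocyte markers were expressed, with summed levels of 28017 to 28579 CPM in KO and 30897 to 31506 CPM in WT. Of 6 endothelial markers, KDR and ERG were at 0 and the sum was 2.27 to 2.52 CPM in KO and 5.51 to 6.82 CPM in WT. Of 8 immune markers, CD3E, MS4A1 and NKG7 were among those at 0, and the sum, mostly LYZ, was 179 to 182 CPM in KO and 290 to 313 CPM in WT. The 8 stromal markers summed to 26.5 to 28.4 CPM in KO and 16.6 to 16.8 CPM in WT, and the 6 cholangiocyte markers to 278 to 284 CPM in KO and 328 to 355 CPM in WT. These sums moved with the groups, and their part in the results was not tested. Single markers did not all follow the sums. Of the 8 hepatocyte markers, 2 were higher in KO and 6 lower, and of 5 tested stromal markers, 4 were higher and 1 lower.

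Repair genes changed in both directions and by small amounts. In KO cells, 8 of the 48 were higher and 14 were lower, and 26 did not pass the test (edgeR quasi-likelihood test, Benjamini-Hochberg adjusted p below 0.05 over 13265 tested genes, referred to here as called). The 22 called genes are 45.8% of the repair genes, against 60.1% of all tested genes called in either direction, 29.4% higher and 30.7% lower. The median log2 fold change of KO over WT was -0.005 over the 48 genes and -0.001 over all tested genes. The median absolute log2 fold change was 0.12 over the 48 genes and 0.22 over all tested genes. The tested genes include some with counts well below those of the 48 genes, and the 2 sets were not matched for level. An absolute log2 fold change of at least 0.5 was found at 1 repair gene, EXO1, against 20.9% of all tested genes, or 18.9% that were also called. The KO and WT libraries did not overlap at 30 repair genes, 15 with KO above WT and 15 with KO below WT, against 65.8% of all tested genes. Against a minimum fold of 1.2 (edgeR glmTreat), EXO1, PARP2 and FANCI were called, with adjusted p of 1.2e-06, 0.00501 and 0.0405, where 26.2% of all tested genes were called. DESeq2 called 18 of the repair genes and 44.6% of the genes it tested, and with a minimum count of 50 edgeR called 22 repair genes and 63.5% of the genes kept. In bulk RNA, fewer cells expressing a gene and less RNA per cell cannot be told apart.

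**Figure D1:**
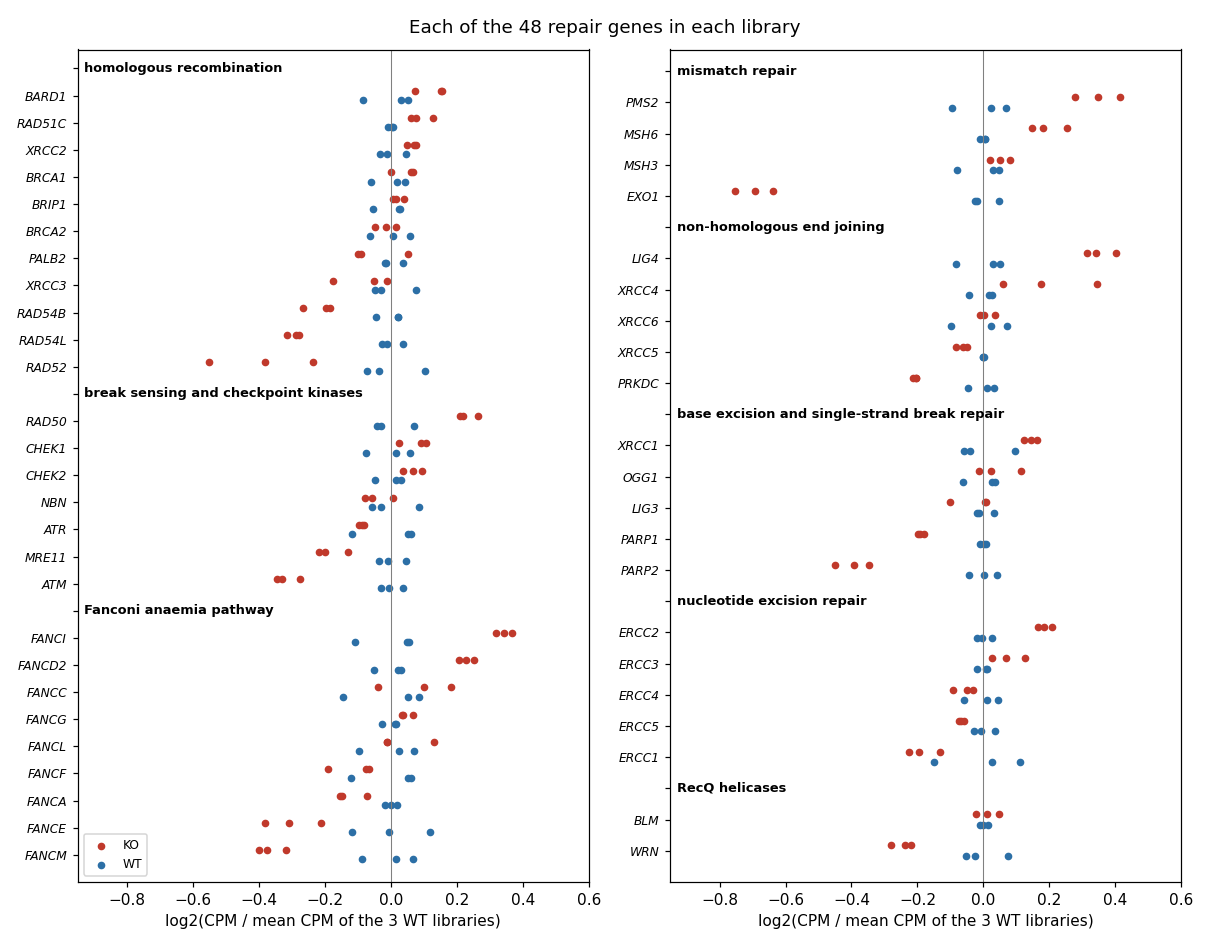
Level of each of the 48 repair genes in each library, as log2 of CPM over the mean of the 3 WT libraries, grouped by repair route, with KO (red) drawn above WT (blue). EXO1 lies farthest from the WT libraries on the low side, and LIG4, PMS2 and FANCI farthest on the high side, while BRCA1, BRCA2 and BLM overlap between the groups.

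**Figure D2:**
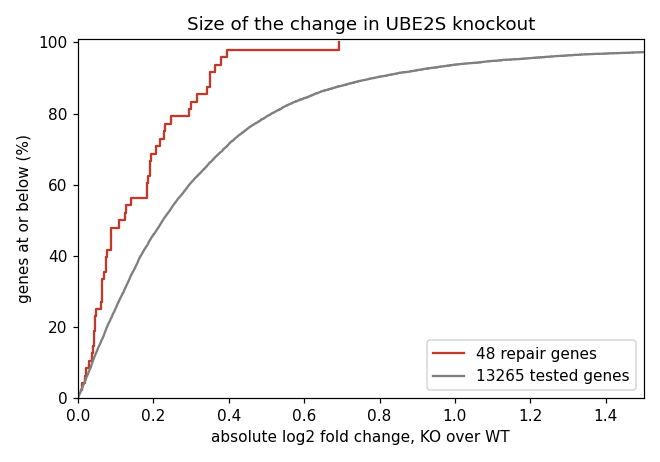
Cumulative share of genes by absolute log2 fold change of KO over WT, for the 48 repair genes (red) and all 13265 tested genes (grey). The red curve rises earlier, with medians of 0.12 for the repair genes and 0.22 for all tested genes. The sets were not matched for expression level.

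Mismatch repair held the largest change among the repair genes. EXO1, an exonuclease that resects the mismatched strand and also trims ends of double-strand breaks, had 33.4, 36.2 and 34.9 CPM in KO libraries, against 55.3, 58.2 and 55.5 CPM in WT libraries. Every KO library lay far below every WT library, and the gene fell by 38.1% (log2 fold change -0.69, SE 0.04, edgeR adjusted p = 5.34e-08). PMS2, an endonuclease subunit of mismatch repair, had 29.8, 32.7 and 31.3 CPM in KO libraries, against 23.0, 25.7 and 24.97 CPM in WT libraries. It rose without overlap (log2 fold change 0.35, SE 0.06, edgeR adjusted p = 1.93e-04), but GENCODE lists 11 pseudogenes named after it, so reads shared with near-identical copies make its value uncertain. MSH6, which recognises mismatched bases, had 128, 137 and 131 CPM in KO libraries, against 116, 116 and 114 CPM in WT libraries. MSH6 also rose without overlap (log2 fold change 0.19, SE 0.03, edgeR adjusted p = 3.15e-04), and FBXO11, whose exons overlap 16.2% of those of MSH6 on the opposite strand, rose too (0.13). MSH3, which recognises larger loops, was not called at a log2 fold change of 0.05 (95% interval -0.09 to 0.19).

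The promoters of EXO1 and PMS2 are shown because these genes moved most, down and up, within this route. EXO1 lies on chromosome 1 from 241847967 to 241895148, plus strand, and PMS2 on chromosome 7 from 5973239 to 6009125, minus strand (GRCh38, GENCODE release 29). The sequences are the 250 bases before an annotated start (RefSeq, GRCh38.p14), at chr1:241847954-241848203, plus strand, for EXO1 and chr7:6009107-6009356, minus strand, for PMS2. They read along the gene, and capitals mark the CCAAT motif bound by NF-Y on either strand.
EXO1: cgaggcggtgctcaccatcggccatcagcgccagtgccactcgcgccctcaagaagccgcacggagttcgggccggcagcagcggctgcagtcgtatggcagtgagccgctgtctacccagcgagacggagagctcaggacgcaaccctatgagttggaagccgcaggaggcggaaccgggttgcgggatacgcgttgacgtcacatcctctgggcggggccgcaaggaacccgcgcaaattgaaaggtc
PMS2: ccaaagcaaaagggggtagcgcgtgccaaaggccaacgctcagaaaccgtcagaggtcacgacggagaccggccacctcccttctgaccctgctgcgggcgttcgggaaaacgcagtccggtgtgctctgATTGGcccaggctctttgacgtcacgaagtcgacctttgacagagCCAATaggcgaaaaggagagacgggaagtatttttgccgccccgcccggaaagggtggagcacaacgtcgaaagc
The EXO1 window, 1 of 2 listed, held no CCAAT before its start, and a TTTCGCG motif, the core of E2F sites, began 4 bases after the base at the start. PMS2 had 2 CCAAT motifs before the start, on opposite strands. The start of PMS2 lies 120 bases from that of AIMP2, a scaffold of the aminoacyl-tRNA synthetase complex transcribed in the other direction. AIMP2 averaged 49.0 CPM in KO and 40.5 CPM in WT and rose as well (log2 fold change 0.28, SE 0.05, edgeR adjusted p = 3.60e-04).

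**Figure D3:**
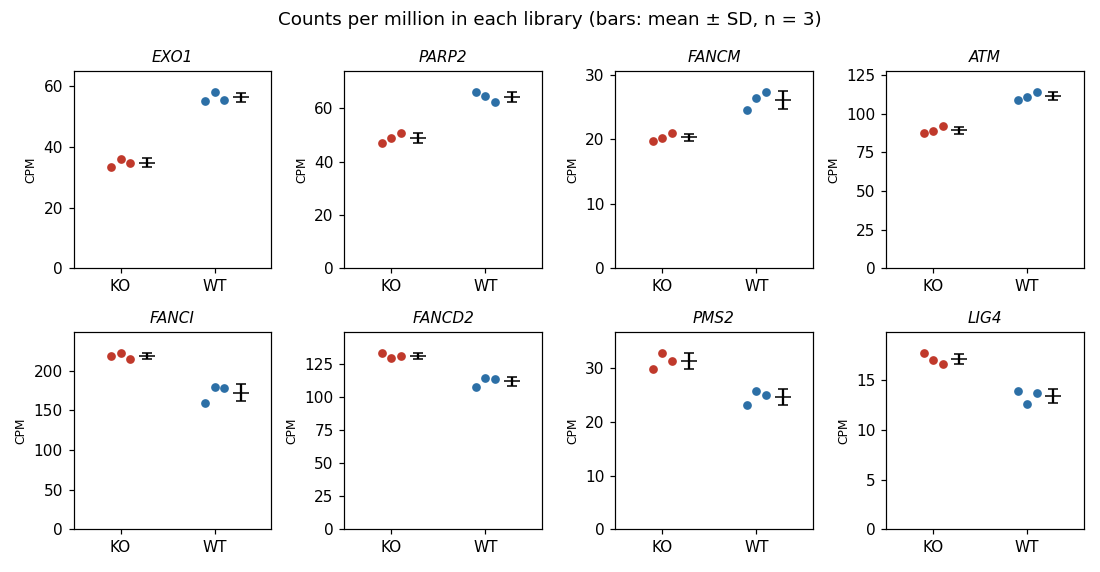
CPM in each KO (red) and WT (blue) library for 8 repair genes, with mean and SD over 3 libraries per group beside the points. The KO points of EXO1, PARP2, FANCM and ATM all lie below the WT points, and those of FANCI, FANCD2, PMS2 and LIG4 all lie above them.

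In the Fanconi anaemia pathway, 2 of 9 genes were higher and 3 lower, where 29.4% of all tested genes were higher and 30.7% lower. The 2 higher genes, FANCI and FANCD2, form the pair that is ubiquitinated at crosslinks. The 3 lower genes, FANCM, FANCE and FANCA, belong to the upstream machinery. Other genes of that machinery, FANCC, FANCF, FANCG and FANCL, were not called, so this split describes the called genes alone. FANCI had 218, 222 and 215 CPM in KO libraries, against 160, 179 and 178 CPM in WT libraries. The groups did not overlap, the lowest WT value was that of replicate 1, and FANCI rose by 26.8% (log2 fold change 0.34, SE 0.04, edgeR adjusted p = 1.30e-05). FANCI lies on chromosome 15 from 89243949 to 89317261, plus strand. FANCD2, its partner in the clamp that closes on DNA, had 133, 129 and 131 CPM in KO libraries, against 108, 114 and 113 CPM in WT libraries. FANCD2 rose without overlap (log2 fold change 0.23, SE 0.03, edgeR adjusted p = 6.99e-05), and 1 pseudogene is listed for it.

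FANCM, the translocase that brings the core ubiquitin ligase to chromatin, had 19.8, 20.1 and 20.9 CPM in KO libraries, against 24.6, 26.4 and 27.4 CPM in WT libraries. It fell without overlap (log2 fold change -0.36, SE 0.06, edgeR adjusted p = 1.38e-04) and lies on chromosome 14 from 45135940 to 45200890. FANCE, a core subunit that contacts FANCD2, had 6.59, 6.16 and 5.86 CPM in KO libraries, against 7.03, 8.28 and 7.60 CPM in WT libraries. The groups did not overlap, and the fall of FANCE (log2 fold change -0.30, SE 0.10, edgeR adjusted p = 0.0168) was lost with DESeq2 (adjusted p = 0.105) and without KO replicate 3 (adjusted p = 0.071) or WT replicate 2 (0.0649). FANCA, a core subunit that binds FANCG, had 76.3, 72.3 and 72.0 CPM in KO libraries, against 79.1, 81.2 and 80.2 CPM in WT libraries. FANCA fell without overlap (log2 fold change -0.12, SE 0.04, edgeR adjusted p = 0.00939). The call was lost without KO replicate 2 (adjusted p = 0.0505) or 3 (0.0544). Exons of FANCA overlap those of ZNF276 on the opposite strand over 23.6% of their length.

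The remaining core subunits FANCC, FANCF and FANCG and the catalytic subunit FANCL were not called, with log2 fold changes of -0.11 to 0.09. The intervals were widest for FANCC, from -0.10 to 0.28, and narrowest for FANCG, from -0.04 to 0.13. FANCF was called without WT replicate 1 (log2 fold change -0.17, adjusted p = 0.0389).

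Among break sensors and checkpoint kinases, ATM fell and its downstream and parallel kinases did not pass the test. ATM had 87.7, 88.6 and 91.9 CPM in KO libraries, against 109, 111 and 114 CPM in WT libraries. The KO libraries lay below all WT libraries (log2 fold change -0.32, SE 0.03, edgeR adjusted p = 5.39e-06). ATM lies on chromosome 11 from 108222484 to 108369102, plus strand, and its head-to-head neighbour NPAT, an activator of histone genes whose start is 158 bases away, was not called (-0.04, SE 0.06, adjusted p = 0.55). ATR, which responds to single-stranded DNA at stalled forks, was not called (-0.09, 95% interval -0.20 to 0.02) but was called lower without WT replicate 1 (-0.15, adjusted p = 0.00207). CHEK1 (0.07, interval -0.02 to 0.17) and CHEK2 (0.06, interval -0.04 to 0.17) were not called, and CHEK2 has 4 pseudogenes that can share its reads.

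The 3 subunits of the MRN complex, which binds broken ends and recruits ATM, did not move together. The ATPase subunit RAD50 had 68.8, 69.2 and 71.4 CPM in KO libraries, against 62.4, 57.8 and 58.3 CPM in WT libraries. RAD50 rose without overlap (log2 fold change 0.23, SE 0.04, edgeR adjusted p = 3.24e-04), and 79.7% of its exonic bases are shared with the same-strand entry AC116366.3. The nuclease subunit MRE11 had 36.6, 38.9 and 37.0 CPM in KO libraries, against 42.3, 43.9 and 41.5 CPM in WT libraries, and it fell without overlap (-0.18, SE 0.05, edgeR adjusted p = 0.00376), with 1 pseudogene listed. NBN, which carries the ATM binding site, was not called (-0.04, interval -0.14 to 0.06).

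Homologous recombination had no called increase and 3 called decreases among its 11 genes, where 29.4% of all tested genes were higher and 30.7% lower. The breast cancer genes were among those not called: BRCA1, the ubiquitin ligase subunit, had 88.8, 88.4 and 84.7 CPM in KO libraries, against 85.9, 81.3 and 87.3 CPM in WT libraries. The groups overlapped, and the log2 fold change was 0.04 (95% interval -0.04 to 0.12). BRCA2, a mediator of recombination on single strands, was at -0.02 (interval -0.10 to 0.07). PALB2, which links BRCA1 with BRCA2, was at -0.04 (interval -0.16 to 0.08). BARD1, the partner of BRCA1, lay at 0.13 with KO above WT and an adjusted p of 0.0643, and was called under upper quartile scaling (adjusted p = 0.0463). The helicase gene BRIP1 and the recombination genes RAD51C, XRCC2 and XRCC3 were not called, with log2 fold changes of -0.08 to 0.09. XRCC3 shares 76.7% of its exonic bases with the opposite-strand gene KLC1, so its reads are uncertain.

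The 3 called genes were RAD54L, RAD54B and RAD52. RAD54L, a motor that drives strand invasion, had 31.8, 31.3 and 32.1 CPM in KO libraries, against 38.2, 38.6 and 39.9 CPM in WT libraries. It fell without overlap (log2 fold change -0.29, SE 0.04, edgeR adjusted p = 8.86e-05), and LRRC41, which overlaps 25.1% of its exonic bases on the other strand, stood at the same log2 fold change (-0.29). RAD54B, a related motor, had 15.7, 15.9 and 15.0 CPM in KO libraries, against 17.5, 18.3 and 18.3 CPM in WT libraries. RAD54B fell without overlap (-0.22, SE 0.06, edgeR adjusted p = 0.00654), a call that DESeq2 did not make (adjusted p = 0.0646), and 59.1% of its exonic bases are shared with FSBP on the same strand, which rose (0.40). RAD52, which anneals complementary strands, had 7.003, 7.87 and 8.71 CPM in KO libraries, against 9.76, 9.99 and 11.02 CPM in WT libraries. RAD52 fell without overlap (-0.38, SE 0.09, edgeR adjusted p = 0.0036).

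In non-homologous end joining, the ligase gene rose and the kinase gene fell. LIG4, the ligase that seals the ends, had 17.7, 17.02 and 16.7 CPM in KO libraries, against 13.9, 12.7 and 13.7 CPM in WT libraries. It had the largest rise among the 48 genes, by 27.4% (log2 fold change 0.35, SE 0.06, edgeR adjusted p = 4.37e-04), without overlap between the groups. PMS2 rose by as much (27.4%, log2 fold change 0.35, SE 0.06), so this rank rests on less than the error. PRKDC, the catalytic subunit of DNA-dependent protein kinase, had 1104, 1112 and 1110 CPM in KO libraries, against 1240, 1290 and 1310 CPM in WT libraries. PRKDC fell without overlap (-0.21, SE 0.03, edgeR adjusted p = 3.98e-05). The Ku subunits that hold the ends were not called: XRCC6 was at 0.01 (interval -0.08 to 0.09) and XRCC5 at -0.06 (interval -0.12 to -0.01, adjusted p = 0.0513), and XRCC5 was called lower without WT replicate 1 (adjusted p = 0.00568) and with limma-voom (0.0384). XRCC4, the scaffold of LIG4, was at 0.19 (interval -0.004 to 0.38) with KO above WT, and was called without KO replicate 3 (0.26, adjusted p = 0.0394).

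The window before a start of LIG4 is shown because this gene ranked first among the rises, level with PMS2. It lies at chr13:108218350-108218599, minus strand (RefSeq, GRCh38.p14). It is 1 of 5 windows listed for LIG4 and held none of the motifs searched, while 2 of its other windows held CCAAT.
LIG4: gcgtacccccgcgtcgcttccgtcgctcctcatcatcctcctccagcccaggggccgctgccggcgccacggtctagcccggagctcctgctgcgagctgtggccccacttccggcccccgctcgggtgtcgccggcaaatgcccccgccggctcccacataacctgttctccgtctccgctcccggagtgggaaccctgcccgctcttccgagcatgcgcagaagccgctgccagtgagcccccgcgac
ABHD13, which is transcribed in the opposite direction from a start 11 bases away, was not called (log2 fold change 0.06, SE 0.06, adjusted p = 0.387).

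In base excision and single-strand break repair, both poly(ADP-ribose) polymerases among the 48 genes, PARP1 and PARP2, fell. PARP1, the main sensor of nicks, had 465, 461 and 459 CPM in KO libraries, against 530, 523 and 528 CPM in WT libraries. PARP1 fell without overlap (log2 fold change -0.19, SE 0.03, edgeR adjusted p = 3.71e-05). PARP2, which acts beside it, had 47.1, 49.0 and 50.7 CPM in KO libraries, against 66.2, 64.5 and 62.4 CPM in WT libraries. PARP2 fell by 23.9% without overlap (-0.39, SE 0.04, edgeR adjusted p = 4.42e-06), the second largest fall after EXO1. RAD52 (-0.38, SE 0.09) and FANCM (-0.36, SE 0.06) lay close to PARP2, so this rank rests on less than the error. XRCC1, the scaffold recruited by PARP1 and PARP2, had 47.3, 48.6 and 47.997 CPM in KO libraries, against 46.4, 41.7 and 42.3 CPM in WT libraries. XRCC1 rose without overlap (0.14, SE 0.05, edgeR adjusted p = 0.0218) but was not called with DESeq2 (adjusted p = 0.0631) or without KO replicate 2 (0.0682), KO replicate 3 (0.0624), WT replicate 2 (0.0864) or WT replicate 3 (0.0761). GENCODE lists 2 pseudogenes of PARP1. The ligase gene LIG3 (-0.03, interval -0.12 to 0.06) and the oxidised guanine glycosylase gene OGG1 (0.04, interval -0.08 to 0.16) were not called, and both share exons with opposite-strand genes, RFFL over 29.1% and CAMK1 over 24.96% of their exonic bases.

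The window before the start of PARP2 is shown because this gene ranked second among the falls, close to RAD52 and FANCM. It lies at chr14:20343385-20343634, plus strand (RefSeq, GRCh38.p14). It held none of the motifs searched.
PARP2: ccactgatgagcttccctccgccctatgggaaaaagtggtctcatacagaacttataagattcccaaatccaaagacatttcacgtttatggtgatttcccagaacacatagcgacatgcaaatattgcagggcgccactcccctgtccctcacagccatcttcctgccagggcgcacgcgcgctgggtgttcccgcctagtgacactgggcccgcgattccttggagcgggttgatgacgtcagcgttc
PARP2 lies on chromosome 14 from 20343582 to 20357905 (GENCODE release 29). Its neighbours on the chromosome had a median log2 fold change of -0.24.

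In nucleotide excision repair, 1 of 5 genes rose and 1 fell, where 29.4% of all tested genes were higher and 30.7% lower. ERCC2, the helicase of transcription factor IIH that unwinds towards the damage, had 46.3, 45.5 and 45.03 CPM in KO libraries, against 40.8, 39.5 and 40.0 CPM in WT libraries. ERCC2 rose without overlap (log2 fold change 0.18, SE 0.04, edgeR adjusted p = 0.00167). ERCC1, the partner of the nuclease ERCC4, had 32.1, 30.7 and 30.1 CPM in KO libraries, against 38.0, 35.8 and 31.7 CPM in WT libraries. ERCC1 was the called gene whose groups overlapped, KO replicate 1 lying above WT replicate 3 (-0.18, SE 0.06, edgeR adjusted p = 0.0256). It was not called with DESeq2 (adjusted p = 0.056) or without KO replicate 2 (0.0757), KO replicate 3 (0.100), WT replicate 1 (0.0554) or WT replicate 2 (0.0709), and 28.6% of its exonic bases overlap CD3EAP. ERCC3, the other helicase of that factor, had the highest level of the route per length and 69.1, 74.0 and 71.1 CPM in KO libraries, against 68.4, 67.0 and 68.3 CPM in WT libraries, and was not called (0.07, adjusted p = 0.108). The nuclease genes ERCC4 (-0.06, interval -0.19 to 0.07) and ERCC5 (-0.07, interval -0.17 to 0.04) were not called, with KO below WT at ERCC5. ERCC5 shares 63.2% of its exonic bases with the same-strand entry BIVM-ERCC5 and 19.1% with BIVM, which fell (-0.24). ERCC4 shares 25.7% with the opposite-strand entry AC010401.1, so reads of both genes are uncertain.

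The RecQ helicases differed in their calls. WRN, mutated in Werner syndrome, had 67.7, 68.6 and 65.8 CPM in KO libraries, against 77.1, 78.6 and 84.1 CPM in WT libraries, and fell without overlap (log2 fold change -0.25, SE 0.04, edgeR adjusted p = 1.94e-04). BLM, mutated in Bloom syndrome, had 56.0, 54.6 and 53.5 CPM in KO libraries, against 54.2, 53.9 and 54.7 CPM in WT libraries. BLM was not called (0.01, interval -0.07 to 0.09), and the difference between WRN and BLM was not tested.

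Levels of the 48 genes were also compared per length, as CPM per kilobase of the longest coding transcript in GENCODE. On this scale XRCC6, PARP1, XRCC5 and PRKDC stood above the others, while the end-joining genes XRCC4 (5.38 in KO and 4.69 in WT) and LIG4 (4.10 in KO and 3.21 in WT) were among the low ones. XRCC6, for which GENCODE lists 5 pseudogenes that can share its reads, was at 179 in KO and 178 in WT. PARP1 was at 117 in KO and 133 in WT, XRCC5 at 91.9 in KO and 96.2 in WT and PRKDC at 82.1 in KO and 94.8 in WT. FANCI followed at 46.0 in KO and 36.3 in WT. The lowest was FANCC, at 2.27 in KO and 2.14 in WT. The summed level of the 48 genes was 4487 to 4525 CPM in KO libraries and 4641 to 4795 CPM in WT libraries, to which PRKDC contributed most.

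**Figure D4:**
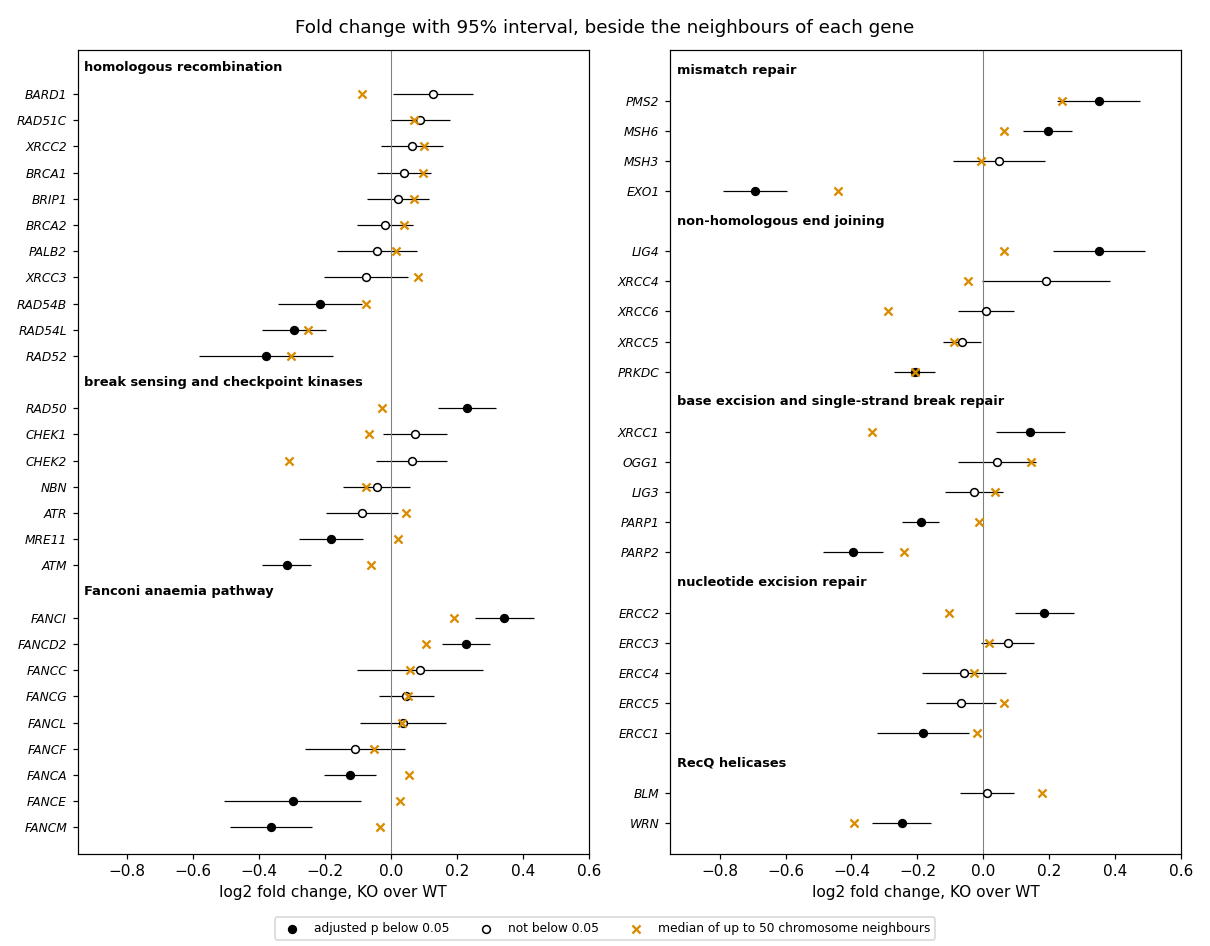
Log2 fold change of KO over WT with its 95% interval for each repair gene (filled: adjusted p below 0.05), grouped by route, beside the median log2 fold change of up to 50 tested neighbours on the chromosome (crosses). LIG4, RAD50, ATM and FANCM lie apart from their crosses, while PRKDC and RAD54L lie on or near theirs.

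The fold changes of repair genes followed those of their chromosome neighbours in part. For each gene the median log2 fold change of the 25 tested genes on each side was taken, fewer near chromosome ends. Across the 48 genes, Pearson's r between a gene and its neighbours was 0.54 and Spearman's rho 0.44, against 0.27 and 0.40 across 13222 tested genes with a position. Neighbouring genes share libraries and positions, so these are descriptions. Of the 22 called repair genes, 16 had the sign of their neighbours. The same count was not made for all called genes, so nothing is read from it. With the neighbours' median subtracted, 17 of the 22, 7 higher and 10 lower, kept their sign and lay at least 2 SE from 0, without counting the error of the median itself. The same held for 6319 of the 7975 called genes among all tested. As a share of tested genes, that is 17 of 48 repair genes, against 47.6% of all.

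For some of the falls the neighbours stood at a like value. PRKDC, on chromosome 8 from 47773108 to 47960183, had neighbours at -0.21 and a remainder of -0.001, and MCM4, the replicative helicase gene that starts 2 bases away in the other direction, fell by a similar amount (-0.23, SE 0.03, edgeR adjusted p = 1.16e-05). RAD54L had neighbours at -0.25 and a remainder of -0.04, and RAD52 neighbours at -0.30 and a remainder of -0.08. ERC1, which starts 456 bases from RAD52, fell too (-0.45, SE 0.04, edgeR adjusted p = 1.24e-06). WRN, on chromosome 8 from 31033801 to 31173769, changed sign: its neighbours were at -0.39 and its remainder at 0.15. EXO1 had neighbours at -0.44 and a remainder of -0.25, and PARP2 a remainder of -0.15.

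Other changes stood apart from their neighbours. LIG4 had neighbours at 0.06 and a remainder of 0.29, ATM neighbours at -0.06 and a remainder of -0.26, and FANCM neighbours at -0.03 and a remainder of -0.33. RAD50 had neighbours at -0.03 and a remainder of 0.26. XRCC1 lay highest above its neighbours, which were at -0.34, with a remainder of 0.48. CHEK2 and XRCC6, both on chromosome 22 and not called, had neighbours at -0.31 and -0.29 and remainders of 0.37 and 0.30. FANCI (neighbours 0.19, remainder 0.15), FANCD2 (0.11 and 0.12) and PMS2 (0.24 and 0.11) had neighbours that were also higher, and PMS2 was then within 2 SE of 0.

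**Figure D5:**
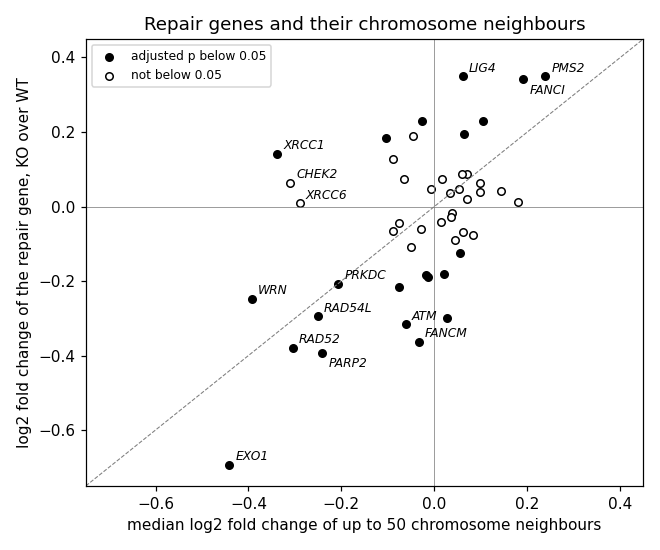
Log2 fold change of each of the 48 repair genes (y) against the median log2 fold change of up to 50 tested neighbours on its chromosome (x), filled where the adjusted p was below 0.05; the dashed line marks equal values. PRKDC and RAD54L lie near the line, XRCC1, CHEK2 and LIG4 above it, and ATM and FANCM below it.

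Starts shared with an opposite gene gave a mixed picture. Of the 48 genes, 18 had a tested gene starting within 1000 bases in the opposite direction. Both members of the pair were called in 5 pairs, all in the same direction: RAD52 with ERC1, FANCM with FKBP3, PMS2 with AIMP2, PRKDC with MCM4 and WRN with PURG. Of all tested genes, 60.1% were called, so nothing is read from these 5 pairs. In 9 of the 18 pairs the signs were the same. XRCC6 was not called although DESI1, which starts 23 bases away, fell to 31.4 CPM in KO, against 59.4 CPM in WT (log2 fold change -0.92, SE 0.05, edgeR adjusted p = 1.56e-08). LIG3 was not called beside CCT6B, which rose (1.40, SE 0.10, edgeR adjusted p = 1.55e-07).

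Promoter windows of 300 bases, 250 before to 50 after a start, were listed for 42 of the 48 genes, 61 windows in all (RefSeq, GRCh38.p14). No window was listed for FANCI, which rose, PRKDC, WRN and RAD54B, which fell, or NBN and XRCC5, which were not called. The motifs TTTGGCG and TTTCGCG (E2F core), TTTGAA (cell cycle homology region) and CCAAT were searched on both strands, and none of them contains another. An E2F core was in 5 windows (8.2%), against 4.77% of 15504 windows of tested genes and 3.19% of all 35116 windows in the table. The cell cycle homology motif was in 5 windows (8.2%), against 11% of those of tested genes and 15.2% of all. CCAAT was in 28 windows (45.9%), against 34.9% of those of tested genes and 34.6% of all. CCAAT was in 46.7% of the 15 windows of genes that rose, 47.1% of the 17 windows of genes that fell and 44.8% of the 29 windows of genes not called. Some genes had several windows, such as LIG4 with 5 and PMS2 with 2, and each window was counted apart. Counted once per gene, CCAAT was in 22 of the 42 genes, the E2F core in 5 and the cell cycle homology motif in 5. No count per gene was made by direction or for other genes, so nothing is read from the window shares. The genes with an E2F core were EXO1, which fell, and FANCC, FANCF, MSH3 and XRCC6, which were not called. Such matches describe the sequence and do not mark a site in use.

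Other repair genes, 116 on lists drawn up by route, were set beside the 48. All 116 were tested, 45 were higher and 23 lower in KO, and the median log2 fold change was 0.05. The 68 called are 58.6%, against 60.1% of all tested genes, 29.4% higher and 30.7% lower. Damage tolerance and reversal had 8 of 14 higher and 4 lower, led by the alkylguanine transferase gene MGMT (log2 fold change 0.65, SE 0.05), the nuclease gene DCLRE1A (0.54, SE 0.04) and the ubiquitin ligase gene RAD18 (0.48, SE 0.04). The lesion bypass polymerase genes POLH (-0.48, SE 0.08) and POLK (-0.34, SE 0.08) and the demethylase gene ALKBH3 (-0.36, SE 0.11) fell. ALKBH3 was not called with DESeq2 (adjusted p = 0.114) or without KO replicate 2 (0.067). Other nucleotide excision repair genes had 8 of 17 higher and 1 lower. UVSSA, which acts where RNA polymerase stalls at lesions, had 103, 100.7 and 97.0 CPM in KO libraries, against 58.0, 60.3 and 64.3 CPM in WT libraries. UVSSA rose without overlap (0.72, SE 0.04, edgeR adjusted p = 2.67e-08), as did the damage verifier XPA (0.64, SE 0.07) and GTF2H5 (0.44, SE 0.06), while CETN2 fell (-0.37, SE 0.05).

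Other genes of break signalling had 7 of 16 higher and 2 lower, where 29.4% of all tested genes were higher and 30.7% lower. TP53BP1, which shields ends from resection, rose (0.30, SE 0.03), as did TIPIN (0.37, SE 0.06) and ETAA1 (0.32, SE 0.06). CLSPN, the adaptor through which ATR activates CHEK1, had 73.7, 76.4 and 76.7 CPM in KO libraries, against 118, 106 and 113 CPM in WT libraries. CLSPN fell without overlap (-0.57, SE 0.04, edgeR adjusted p = 1.60e-07), and so did RNF168 (-0.35, SE 0.06). Of 27 other homologous recombination genes, 9 were higher and 7 lower. They included ABRAXAS1 (0.45, SE 0.07), RMI2 (0.40, SE 0.07) and BABAM1 (0.31, SE 0.03) higher and RECQL (-0.57, SE 0.05), BRCC3 (-0.37, SE 0.06) and TOP3A (-0.26, SE 0.03) lower.

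In the other Fanconi anaemia genes, 3 of 10 were higher and 1 lower, against 29.4% and 30.7% of all tested genes. USP1, which removes ubiquitin from FANCD2 and FANCI, rose (0.32, SE 0.04), and its remainder after subtraction of the neighbours was 0.40. FANCB fell (-0.61, SE 0.09), with a remainder of -0.10. CENPS (0.19, SE 0.07) and FAAP100 (0.15, SE 0.05) rose but were not called with DESeq2 (adjusted p = 0.172 and 0.0545). Without KO replicate 1 the adjusted p was 0.0583 for CENPS and 0.0751 for FAAP100, and without KO replicate 3 it was 0.150 and 0.0525. CENPS was not called either without WT replicate 1 (0.0879) or WT replicate 2 (0.0931).

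Among other base excision genes, 6 of 19 were higher and 3 lower, against 29.4% and 30.7% of all tested genes. The poly(ADP-ribose) glycohydrolase gene PARG (0.50, SE 0.06) and the glycosylase gene NEIL3 (0.44, SE 0.07) rose, and PARP3 (0.45, SE 0.14) rose with calls lost with DESeq2 (adjusted p = 0.0574) and without KO replicate 2 (0.0823), KO replicate 3 (0.0547) or WT replicate 2 (0.0648). The abasic site nuclease gene APEX1 (-0.51, SE 0.04), the glycosylase gene NTHL1 (-0.33, SE 0.10) and the gap-filling polymerase gene POLB (-0.20, SE 0.05) fell. Of 7 other end-joining genes, 3 were higher and 3 lower, with the polymerase gene POLL (0.54, SE 0.06) and the end-processing factor gene APLF (0.34, SE 0.09; adjusted p = 0.0542 with DESeq2) higher and the nuclease gene DCLRE1C (-0.66, SE 0.08) and TDP2 (-0.20, SE 0.04) lower. POLM (0.25, SE 0.10) was higher and NHEJ1 (-0.18, SE 0.06) lower, each with calls lost with DESeq2 (adjusted p = 0.182 for POLM and 0.0968 for NHEJ1). POLM was also not called without KO replicate 1 (0.170), KO replicate 3 (0.120), WT replicate 2 (0.092) or WT replicate 3 (0.0994), and NHEJ1 without KO replicate 2 (0.051) or WT replicate 2 (0.0544). In other mismatch repair genes, 1 of 6 was higher and 2 were lower. PMS1 fell (-0.28, SE 0.05), while LIG1 (0.09, adjusted p = 0.0494) and MLH3 (-0.16, adjusted p = 0.043) lay at the threshold. LIG1 was not called with any library left out except WT replicate 2 (adjusted p from 0.0799 to 0.149), and MLH3 was not called without KO replicate 1 (0.128), 2 (0.119) or 3 (0.0536) or WT replicate 3 (0.178).

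Genes of replication and proliferation were measured beside them, since repair genes are often transcribed with them. Of 27, 6 were higher and 10 lower, against 29.4% and 30.7% of all tested genes, with a median log2 fold change of -0.07. The thymidylate synthase gene TYMS was lowest (-0.69, SE 0.03, edgeR adjusted p = 1.39e-09), and the proliferation marker MKI67 was at 0.11. The count of those higher was 3 without KO replicate 1, 2 without KO replicate 2, 2 without KO replicate 3 and 3 without WT replicate 2. Their part in the changes of the repair genes was not tested.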

How the data were processed

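Poly(A) RNA of 3 UBE2S knockout and 3 wild-type Huh7 libraries was measured, with groups and replicate numbers taken from the sample titles. The deposited table holds estimated counts, which the authors did not normalize; 2670 to 2835 genes per library had values that were not whole. Per the labels' protocols, oligo(dT) beads selected the mRNA before NEBNext Ultra library preparation. The submitters' processing notes name HISAT2, DESeq2, StringTie 1.3.1 and Bowtie2 2.2.8 without roles. Sources used here do not state the counting program, annotation, build or use of strand, so reads of overlapping genes cannot be told apart.

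Estimated counts were rounded. Genes were kept by filterByExpr (minimum count 10), which left 13265 of 20289, and tested with edgeR 4.0.16 (R 4.3.3): TMM scaling, quasi-likelihood test, no covariate, Benjamini-Hochberg adjustment, threshold 0.05. Standard errors come from the log2 fold change and its F statistic, and intervals use the test's degrees of freedom. The test was tried on simulated data. Library totals limit counting error, and error across replicates rests on 3 libraries per group. Positions are from GENCODE release 29 (GRCh38), matched by identifier for 20171 genes. The repair genes and all lists were chosen with earlier results of these data known. In each route, per-library values were given for up to 4 called genes with the largest change and for the most abundant. Of other repair genes, up to 3 called genes with the largest change in each direction were named on each list. Among these, UVSSA and CLSPN alone were given per-library values, outside that rule. FANCA and BLM were added after their values were seen. Alternatives were other scalings, filters and thresholds, DESeq2 1.42.0, limma-voom (limma 3.58.1), a minimum fold, a replicate block, leaving out each library and subtraction of chromosome neighbours.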

Additional observations from a re-analysis of the deposited data

How the results depend on the processing

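Of the 22 called repair genes, 3 were called under all 16 alternative tests: EXO1, FANCI and PARP2. The minimum fold of 1.2 removed most calls. It left 3 repair genes (1 higher, 2 lower), 23 other repair genes (15 higher, 8 lower), 4 replication and proliferation genes (0 higher, 4 lower; 16 called with edgeR without a minimum fold) and 3474 of all tested genes (1631 higher, 1843 lower). At an adjusted p below 0.01, 2 replication and proliferation genes were higher, and with a library left out the number was 2 to 4. Leaving out a library gave 19 to 24 called repair genes, 7 to 8 higher and 11 to 16 lower. DESeq2 called 18, all among the 22. Limma-voom and upper quartile scaling called 23 each, all 22 among them. Scaling moved the median of all genes by less than 0.1 on the log2 scale. With the neighbours' median subtracted, WRN turned to 0.15, and the cause was not tested. The replicate number as a block gave 22 called repair genes, the same as without it, and took the call of LIG1 (adjusted p = 0.072). Same-numbered libraries did not deviate together, with correlations of 0.024, -0.037 and 0.017, so the numbers were not taken as pairs, and 1 of 3 KO libraries correlated best with its own number. Depth did not limit detection of the 48 genes, whose lowest count was 144, but FANCE, RAD52 and XRCC4 had the widest errors.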
